A study of Mus musculus with 11 samples.

Results

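The H3K4me3 peaks of QSCs from old mice were compared with those of ASCs from young mice, and each peak was sorted by whether it shared at least 1 bp with an H3K4me3 peak of young QSCs. All 24453 peaks of the old QSC list and all 32846 peaks of the ASC list were used, together 57299 of the 212879 peaks in the 8 deposited lists, and the 24701 peaks of young QSCs served as the reference. The comparison asks whether H3K4me3 that is seen in quiescent cells of old animals but not of young ones lies where activated cells carry it. Quiescent satellite cells (QSCs) are the resting stem cells of skeletal muscle, and activated satellite cells (ASCs) are those that have left quiescence to divide and make new muscle.

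Each library came from male C57BL/6 mice without a transgene or a deletion named in the labels, from hindlimb muscle cells sorted as VCAM+/CD31-/CD45-/Sca1-. Young mice were 2 to 3 months old and old mice 22 to 24 months old. The labels describe the ASCs as sorted young QSCs that were kept for 3 days on an ECM-coated surface in F10 medium with horse serum, whereas the paper speaks of satellite cells activated by injury in the muscle, and the labels' account is used here as the name of the group. ASCs of old mice were not analysed here. Each ChIP used 5 ug of antibody, and libraries were amplified for 15 cycles. Cells were frozen until enough had been sorted, so that a library can pool several animals, and their number per library is not given in the sources used here. Each cell state and mark had 1 library, so there is no replicate error to set a difference against, and no p-values are given. Intervals in parentheses beside shares are Wilson 95% intervals for the counting error alone.

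H3K4me3 is the trimethylation of lysine 4 of histone H3, a mark laid down at promoters that are active or ready for transcription. H3K27me3 is written by the Polycomb complex and is found at silent genes, and in stem cells it can lie at the same promoters as H3K4me3, a state called bivalent. H3K36me3 covers the bodies of genes that are being transcribed. In satellite cells these marks have been studied for the way quiescent cells keep developmental genes silent and genes for activation ready.

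The old QSC peaks covered 39.2 Mb with a median width of 1453 bp, the young QSC peaks 37.4 Mb with a median of 1362 bp, and the ASC peaks 49.2 Mb with a median of 1150 bp. The score of a peak, given by the caller MACS, rises with the evidence for enrichment, from 50 (a p-value of 1e-05) to a ceiling near 3100, which 23.3% of the old QSC peaks, 14.3% of the young QSC peaks and 31.6% of the ASC peaks reached. Scores depend on the depth of each library, which is unknown, so the same score need not mean the same enrichment in 2 lists, and where lists are set side by side by score the comparison has this limit. A peak missing from a list was not called there, which does not show that the mark was absent. Positions are in the mouse build mm9. No gene positions in that build were used here, so regions are given by coordinates, no gene is named, and the cell states could not be checked against marker genes.

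As whole lists, old and young QSCs overlapped ASCs to nearly the same extent, with the old list slightly lower. Of the old QSC peaks, 18880 of 24453 overlapped an ASC peak, a share of 77.2% (76.7% to 77.7%). Of the young QSC peaks, 19404 of 24701 did so, a share of 78.6% (78.0% to 79.1%). Counted from the other side, 57.6% of the ASC peaks overlapped an old QSC peak and 58.7% a young QSC peak. By covered length, old QSCs and ASCs shared 52.0% of the bases that either list covered, young QSCs and ASCs 52.7%, and old and young QSCs 68.4%. Both QSC lists thus shared more bases with each other than either did with ASCs. Among peaks that did not overlap an H3K27me3 peak of old QSCs the order of the whole lists turned, with 85.9% (85.4% to 86.4%) of old and 80.1% (79.5% to 80.7%) of young QSC peaks in ASCs.

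Most of this overlap came from peaks found at both ages. The 19683 old QSC peaks that were also called in young QSCs overlapped an ASC peak in 90.5% of cases (90.1% to 90.9%), and the 19891 young QSC peaks that were also called in old QSCs in 90.4% (90.0% to 90.8%). These were the strong peaks of each list, with a median score of 1492 in old QSCs. When peaks of all 3 H3K4me3 lists were merged wherever they touched, 40896 sites resulted, and 17335 of them, or 42.4%, were called in old QSCs, young QSCs and ASCs alike. The sites that bear on the question were far fewer. Sites called in old QSCs and ASCs but not in young QSCs numbered 914, and the mirror class, called in young QSCs and ASCs but not in old QSCs, numbered 1221, a log2 ratio of -0.42 (-0.541 to -0.294). A further 1810 sites were called in QSCs of both ages and not in ASCs.

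**Figure D1:**
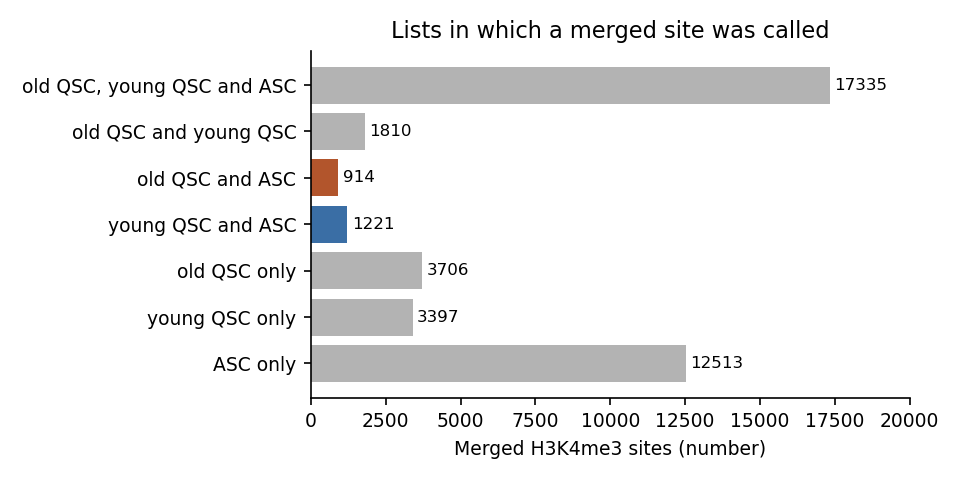
Bars give the number of merged H3K4me3 sites (x axis) called in each combination of the old QSC, young QSC and ASC lists (y axis), with the count beside each bar. The 914 sites shared by old QSCs and ASCs only are in orange, the 1221 shared by young QSCs and ASCs only are in blue, and the 17335 sites called in all 3 lists form the longest bar.

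Old QSC peaks without a young counterpart overlapped ASC peaks less often than their mirror image did. There were 4770 old QSC peaks that shared no base with a young QSC peak, 19.5% of the list, and 1064 of them overlapped an ASC peak, a share of 22.3% (21.1% to 23.5%) against 77.2% for the whole list. There were 4810 young QSC peaks that shared no base with an old QSC peak, and 1413 of them overlapped an ASC peak, a share of 29.4% (28.1% to 30.7%) against 78.6% for the whole list. The old share was lower by 7.07 percentage points (difference -7.07, interval -8.81 to -5.32). With a score of at least 100 required in each list the difference was -2.17 (-5.20 to 0.885), an interval that includes 0, and restrictions to peaks without old QSC H3K27me3 or to strong peaks, given below, turned its sign. The cause of the difference was not tested, and with 1 library of each age, age cannot be told apart from the depth or quality of a library.

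The overlap of these peaks with ASCs was above the level of displaced peaks. As a level to set it beside, each counted list was moved along every chromosome by 9 fixed steps spread evenly over its length and counted again. The moved old QSC peaks without young QSC overlapped an ASC peak in 2.60% to 3.25% of cases, with a mean of 2.85%, and the moved young QSC peaks without old QSC in 2.66% to 3.28%, with a mean of 2.96%. The corresponding level for the whole old QSC list was 3.78%. Moved peaks land mostly away from promoters, so this level describes unrelated positions in the genome and not other promoters.

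**Figure D2:**
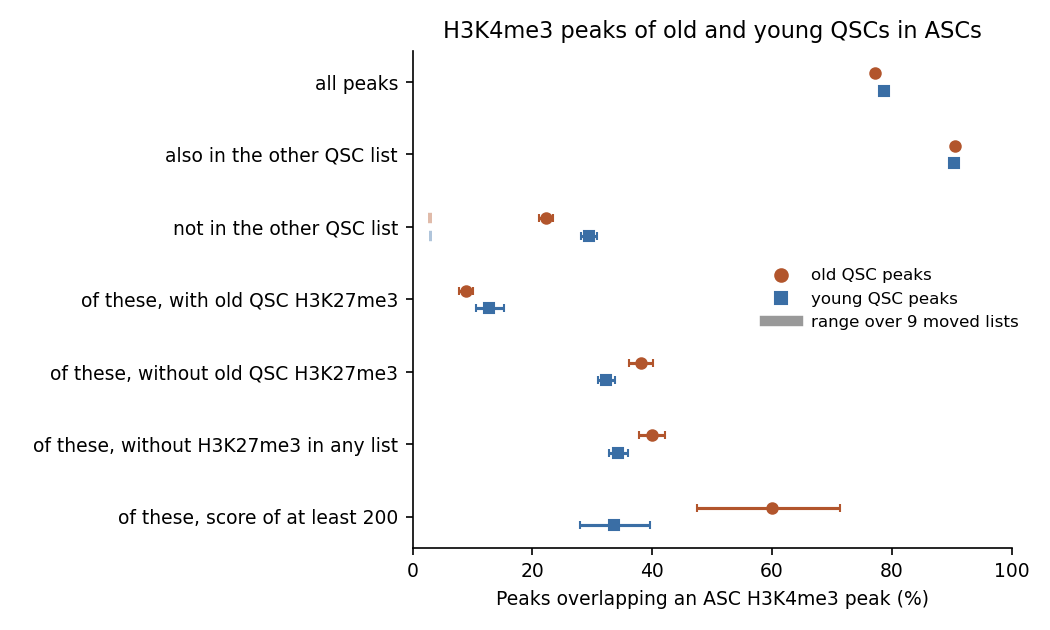
Points give the percentage of old QSC peaks (orange circles) and young QSC peaks (blue squares) that overlapped an ASC H3K4me3 peak (x axis), for the whole lists and for the subsets named on the y axis, with Wilson 95% intervals. Pale bars give the range over 9 moved lists. Old QSC peaks absent from young QSCs lie at 22.3% and their mirror image at 29.4%, and this order turns for peaks without old QSC H3K27me3 (38.1% and 32.3%) and for scores of at least 200 (60% and 33.6%).

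The 1064 old QSC peaks that were shared with ASCs were weak and narrow. Their median score in the old QSC list was 74.6 and their median width was 870.5 bp, compared with 1842 and 1692 bp for the peaks called in all 3 lists. The 3706 old QSC peaks seen in neither young QSCs nor ASCs were similar in both measures, with a median score of 68.8 and a median width of 865 bp. At the 1064 shared peaks, the ASC partner covered a median of 82.9% of the old peak, and 14 peaks were covered by less than 10%. The best ASC partner had a median score of 163 in the ASC list, and 69.1% of the partners reached a score of 100. For the 1413 young QSC peaks of the mirror class the median covered share was 86.7%, the median partner score was 165, and 71.8% of the partners reached 100.

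The 2 kinds of old QSC peak lay at different distances from the young peaks. The median gap from an old QSC peak without young QSC to the nearest young QSC peak was 9.87 kb where ASCs shared the peak and 60.2 kb where they did not. Peaks within 1 kb of a young peak made up 19.3% of the first kind and 5.23% of the second, and peaks at least 50 kb away 20.3% and 53.5%. For young QSC peaks without old QSC the medians were 11.4 kb with ASC and 22.0 kb without. Counting a peak as absent from young QSCs only when none lay within 1 kb gave 19.7% of old peaks in ASCs and 26.9% for the mirror image.

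Seen from ASCs, few of the H3K4me3 peaks that young QSCs lacked were present in old QSCs. Of the 13557 ASC peaks without a young QSC peak, 1044 overlapped an old QSC peak, a share of 7.70% (7.26% to 8.16%) against 57.6% for the whole ASC list. Of the 13922 ASC peaks without an old QSC peak, 1409 overlapped a young QSC peak, a share of 10.1% (9.63% to 10.6%) against 58.7%. The difference was -2.42 percentage points (-3.09 to -1.75), and it kept its sign in each of the 8 alternative settings. The moved ASC peaks overlapped an old QSC peak in 2.03% to 2.63% of cases. The other 12513 peaks were seen in ASCs and in QSCs of neither age. Both shares count these peaks as not found, so their order is that of the 1044 and 1409 peaks. It is not independent of the order of the 914 and 1221 sites given above.

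The shares depended on the strength of the counted peak. Among old QSC peaks without young QSC, the share in ASCs was 18.3% for scores from 50 to 60, 20.8% from 60 to 80, 23.0% from 80 to 100 and 28.3% from 100 to 200. Among young QSC peaks without old QSC, the same bins gave 21.8%, 406 of 1504 peaks, 34.5% and 39.7%, so that the old share was the lower of the pair in each of these bins. From 200 to 500 the order turned, with 35 of 59 old peaks, or 59.3% (46.6% to 70.9%), and 76 of 213 young peaks, or 35.7% (29.6% to 42.3%). Over all scores of at least 200, 36 of 60 old peaks and 83 of 247 young peaks overlapped an ASC peak, a difference of 26.4 percentage points (12.4 to 39.1). Taking the same number of top-ranked peaks from each QSC list, 15482, in place of the same score gave 36 of 60 old and 75 of 221 young peaks, a difference of 26.1 percentage points (11.9 to 38.9). At both limits the old class held fewer peaks that were in ASCs, and the share of its peaks in ASCs was higher. The young class reached higher scores, with 3 of 21 peaks from 500 to 1000 and 4 of 13 at 1000 and above in ASCs. The old class held 1 peak from 500 to 1000. Among the 10 highest-scoring young peaks in ASCs, 9 overlapped young QSC H3K36me3 and the widest spanned 87758 bp. Among all 1413 peaks of this class 13.0% overlapped it and the median width was 856 bp, so the 10 are unlike the class. Over the whole young QSC list the share was 12.9%. The first of the 10 scored 3100 for H3K4me3, H3K27me3 and H3K36me3 of young QSCs. These 10 peaks were all in ASCs, so they add to the young share. The cause of the turned order was not tested.

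**Figure D3:**
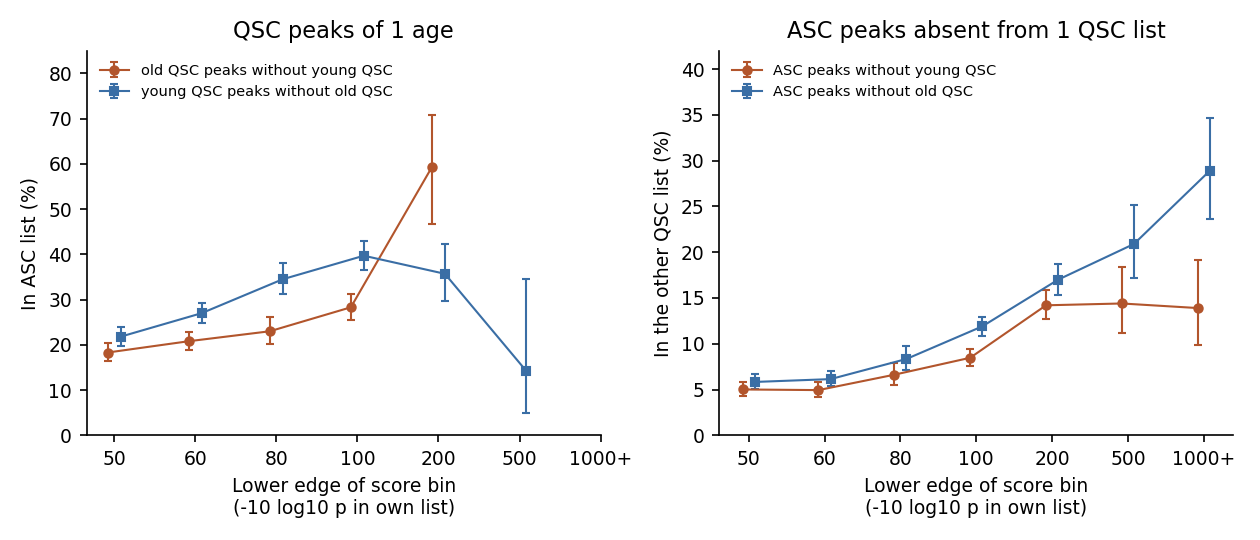
The left panel plots the percentage of old QSC peaks without young QSC (orange circles) and of young QSC peaks without old QSC (blue squares) that overlapped an ASC peak, and the right panel the percentage of ASC peaks without young QSC found in old QSCs (orange) and without old QSC found in young QSCs (blue), by bin of the peak's own score on the x axis. Error bars are Wilson 95% intervals, and bins of fewer than 20 peaks are left out. On the left the old peaks lie below the young ones up to a score of 200 and above them at 59.3% in the next bin, and on the right the orange points lie below the blue ones in each bin.

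For ASC peaks the order did not turn with strength. The share of ASC peaks without young QSC that were found in old QSCs was 5.01% in the lowest bin and 13.9% (9.84% to 19.2%) at scores of 1000 and above. The share of ASC peaks without old QSC that were found in young QSCs was 5.83% and 28.9% (23.6% to 34.7%) in the same bins. Among ASC peaks wider than 3 kb, 14 of 159 without young QSC were found in old QSCs, or 8.81% (5.32% to 14.2%), and 42 of 187 without old QSC were found in young QSCs, or 22.5% (17.1% to 29.0%). The strongest and widest H3K4me3 of ASCs that 1 QSC list lacked was thus present more often in the young list than in the old.

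H3K27me3 of old QSCs lay at most of the old QSC peaks that were in neither other list. Of the 4770 old QSC H3K4me3 peaks without young QSC, 2575 overlapped an old QSC H3K27me3 peak, a share of 54.0% (52.6% to 55.4%), whereas 22.5% of the old QSC peaks with young QSC did. Over the whole old QSC list the share was 28.6%. The share was 63.3% (61.8% to 64.9%) among the 3706 peaks that ASCs lacked and 21.4% (19.1% to 24.0%) among the 1064 that ASCs shared. A contrast in the same direction was seen in the other classes. Old QSC peaks with young QSC gave 41.3% where ASCs lacked the peak and 20.5% where they shared it. Young QSC peaks without old QSC gave 18.6% and 6.51%, and the whole young QSC list 21.1%. The overlap is between lists from separate libraries of the same kind of cell, and it does not show both marks on the same nucleosome or in the same cell.

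The 2 kinds of old QSC peak also differed in the combination of H3K27me3 lists found at them. Of the peaks that ASCs lacked, 1106, or 29.8%, overlapped H3K27me3 in old QSCs only and 1072, or 28.9%, in old QSCs and ASCs but not in young QSCs. Of the peaks that ASCs shared, 770, or 72.4%, had no H3K27me3 in any list, and 124, or 11.7% (9.86% to 13.7%), had it in young QSCs, old QSCs and ASCs. Over the whole old QSC list, 15420 of 24453 peaks had none. The other combinations are not given here for the whole list. H3K27me3 of young QSCs was found at 14.3% (12.3% to 16.5%) of the shared peaks, at 5.42% of those that ASCs lacked, and at 5.45% of the young QSC peaks that ASCs shared. Over the whole old QSC list it was found at 14.2% (13.8% to 14.7%) of peaks, so the shared peaks were near the level of the list and those that ASCs lacked were below it. At the 152 shared regions the mark of Polycomb was called in young QSCs and H3K4me3 was called in old QSCs and ASCs but not in young QSCs.

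The order of the age comparison differed between peaks with and without H3K27me3 of old QSCs. Among peaks that overlapped old QSC H3K27me3, 228 of 2575 old QSC peaks without young QSC were in ASCs, or 8.85%, and 92 of 724 young QSC peaks without old QSC, or 12.7%. Among peaks that did not, 836 of 2195 old peaks were in ASCs, or 38.1% (36.1% to 40.1%), and 1321 of 4086 young peaks, or 32.3% (30.9% to 33.8%), a difference of 5.76 percentage points in the other direction. Leaving out peaks with H3K27me3 in any list gave 40% and 34.3%. Leaving out peaks with young QSC H3K27me3 gave 20.6% and 29.4%, and leaving out those with ASC H3K27me3 gave 26.7% and 32.1%, so that among these restrictions the order turned where the old QSC list was among those used. The number of peaks kept its order, with 836 old against 1321 young, as did the share of ASC peaks, with 6.18% of those without young QSC found in old QSCs and 9.66% of those without old QSC found in young QSCs. These are largely the same regions counted from each side.

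**Figure D4:**
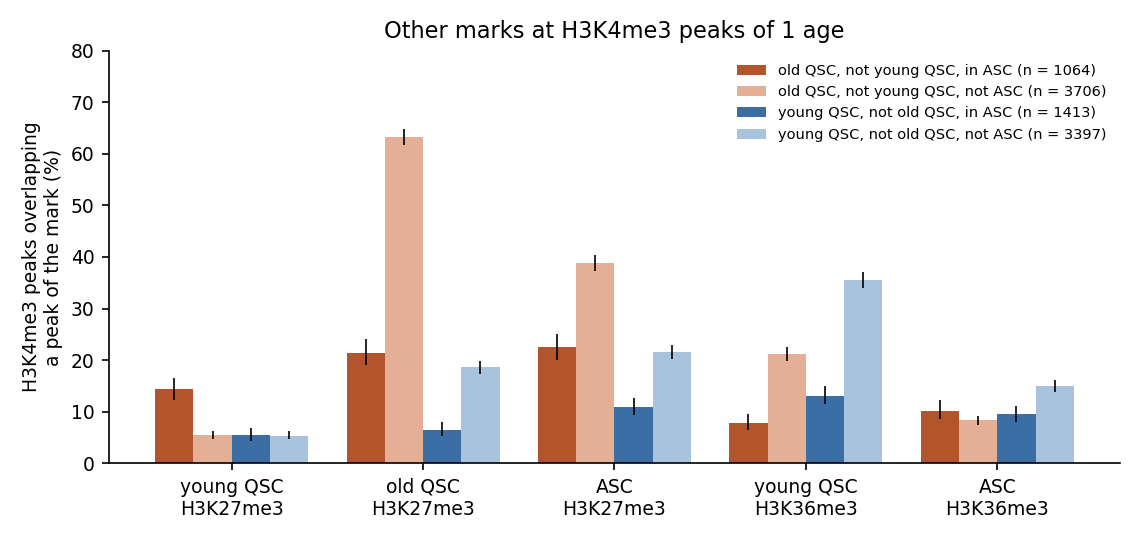
Bars give the percentage of H3K4me3 peaks (y axis) that overlapped a peak of the H3K27me3 or H3K36me3 list named on the x axis, with Wilson 95% intervals, for old QSC peaks absent from young QSCs (orange) and young QSC peaks absent from old QSCs (blue), in dark where ASCs shared the peak and in pale where they did not. Old QSC H3K27me3 was found at 63.3% of the old QSC peaks that ASCs lacked and at 21.4% of those that ASCs shared.

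H3K36me3 of young QSCs, the mark of transcribed gene bodies, was more frequent at peaks that ASCs lacked, and that of ASCs was so for the young peaks but not for the old. Young QSC H3K36me3 overlapped 7.80% (6.34% to 9.57%) of the old QSC peaks without young QSC that ASCs shared and 21.2% (19.9% to 22.6%) of those that ASCs lacked. For the young QSC peaks without old QSC, 184 of the 1413 peaks that ASCs shared overlapped it, and 35.5% of those that ASCs lacked. Over the whole lists the shares were 10.8% of old and 12.9% of young QSC peaks. ASC H3K36me3 overlapped 10.2% and 8.31% of the same kinds of old peak, whose intervals of 8.56% to 12.2% and 7.46% to 9.24% overlap, and 9.48% and 15.0% of the same kinds of young peak. Its shares over the whole lists were 5.90% of old and 6.76% of young QSC peaks. H3K36me3 of old QSCs was not analysed here.

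The highest-scoring old QSC peaks that young QSCs lacked and ASCs shared fell into regions with and without H3K27me3. The first of the 10 lay at chr5:148115513-148119018, 3506 bp wide, with a score of 681.92 in old QSCs and 293.35 at its ASC partner. H3K27me3 was called there in all 3 cell states, with scores of 1586.36 in young QSCs, 1027.00 in old QSCs and 3100 in ASCs. The sixth, at chr2:74570473-74571812, had an H3K4me3 score of 339.46 in old QSCs and 545.89 in ASCs, and H3K27me3 scores of 1048.34, 259.52 and 3100 in young QSCs, old QSCs and ASCs. In these regions H3K4me3 had been called on a stretch that carried the Polycomb mark at both ages.

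Of the 10 regions, 6 overlapped H3K27me3 of young QSCs, 6 of old QSCs and 7 of ASCs, and 3 had none. Among all 1064 peaks of the class these shares were 14.3%, 21.4% and 22.5%, and 72.4% had none, so the 10 are unlike the class. The strongest ASC peak among the 3 regions without H3K27me3 was at chr4:142884545-142886459, with 288.44 in old QSCs and the ceiling score of 3100 in ASCs. The others were chr2:152739624-152740713, with 360.85 in old QSCs and 271.03 in ASCs, and chr4:3157939-3159719, with 327.08 and 341.83. None of the 10 overlapped H3K36me3 in either list of that mark. Few of the 1064 peaks did, 7.80% for young QSCs and 10.2% for ASCs, so this does not set the 10 apart.

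The 10 highest-scoring old QSC peaks that neither young QSCs nor ASCs shared had scores from 219.79 to 285.99. The first, at chr5:16749854-16753369, was 3516 bp wide with a score of 285.99 and overlapped H3K27me3 of old QSCs (282.79) and of ASCs (90.34) and H3K36me3 of young QSCs (79.34). The widest of them, at chr2:21923403-21927518, had an H3K4me3 score of 248.93 over 4116 bp and an old QSC H3K27me3 score of 490.28. Old QSC H3K27me3 was found at 8 of the 10, H3K27me3 of ASCs at 5 and that of young QSCs at 0, whereas 5 overlapped young QSC H3K36me3. Among all 3706 peaks of the class the shares were 63.3%, 38.8%, 5.42% and 21.2% in the same order. With 10 regions these counts do not set them apart from the class.

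The 10 highest-scoring ASC peaks without young QSC were at or above the ceiling score, and as ties at the ceiling were broken by width, 8 of them are the widest of the tied peaks. Of the 10, 2 were called in old QSCs, both close to the lowest score. At chr2:52188479-52192131, 3653 bp wide, the ASC score was 3184.01 and the old QSC score was 65.19. At chr2:164601742-164606026, 4285 bp wide, the scores were 3132.10 and 50.97, and old QSCs also carried H3K27me3 there with a score of 131.38. The remaining 8 were not called in old QSCs, among them chrX:166426128-166447176 with 21049 bp, and chr1:137695140-137701728 with 6589 bp, where ASC H3K36me3 was called with a score of 583.65.

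The X chromosome held more of the old QSC peaks that young QSCs lacked than of the mirror class. It held 281 of the 4770 old QSC peaks without young QSC, 32.6% of all old QSC peaks on that chromosome, and 27 of these, or 9.61% (6.69% to 13.6%), overlapped an ASC peak. The mirror class held 97 peaks on the X chromosome, and 34 of them, or 35.1% (26.3% to 45.0%), overlapped an ASC peak. Over the whole lists, 61.8% of old and 79.7% of young QSC peaks on the X chromosome were in ASCs, and the chromosome held 3.53% of all old and 2.77% of all young QSC peaks. On the autosomes alone the shares were 23.1% and 29.3%. As rounded here, the old share was the lower of the pair on 17 of the 19 autosomes. The pair was equal on chromosome 17, at 24.2%, and the old share was higher on chromosome 5, at 24.7% against 24.4%. Over the autosomes the old share ran from 13.6% to 30.4% and the young share from 23.3% to 36.6%. X-linked peaks made up 6.85% (6.08% to 7.71%) of the old QSC peaks that both other lists lacked and 2.54% (1.75% to 3.67%) of those that ASCs shared, and the mice of each group were male per the labels.

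H3K4me3 that young QSCs carried and ASCs lacked was found in old QSCs slightly more often than the mirror image was found in young QSCs, an order that depended on the peaks counted. Of the 5297 young QSC peaks without ASC, 1900 overlapped an old QSC peak, a share of 35.9% (34.6% to 37.2%), and of the 5573 old QSC peaks without ASC, 1867 overlapped a young QSC peak, a share of 33.5% (32.3% to 34.8%), a difference of 2.37 percentage points (0.579 to 4.16). The numbers found were nearly equal, so this order follows the numbers not found, 3397 young and 3706 old peaks. With ASC, the shares were 92.7% and 94.4%. The difference was -16.0 without peaks that overlap old QSC H3K27me3. Among peaks with a score of at least 100, without a limit on the partner, the shares were 52.8% of 1520 young and 53.9% of 1438 old peaks. Among peaks with a score of at least 200, 233 of 397 young peaks without ASC were found in old QSCs, or 58.7% (53.8% to 63.4%), and 205 of 229 old peaks without ASC were found in young QSCs, or 89.5% (84.9% to 92.9%). This left 24 such peaks in old QSCs only and 164 in young QSCs only. With the 15482 top-ranked peaks of each list the shares were 58.4% and 89.5%.

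Peak widths were compared at the 15893 sites where each of the 3 lists had a single peak. The median width was 1677 bp in old QSCs, 1596 bp in young QSCs and 1787 bp in ASCs. The median ratio of widths was 1.05 for old over young QSCs and 1.09 for ASCs over young QSCs, and the old peak was the wider at 66.6% of sites and the ASC peak at 62.8%. The spread was unequal, with the middle 50% of sites between 0.967 and 1.15 for old over young QSCs and between 0.915 and 1.31 for ASCs over young QSCs. Both ratios have the young list in the denominator and are given side by side only. Across sites, widths had a Spearman rho of 0.79 between old QSCs and ASCs, 0.78 between young QSCs and ASCs and 0.90 between old and young QSCs. Sites are not independent replicates.

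How the ratios changed with the width of the site depended on the width used to sort the sites. Sites were first sorted by young QSC width, which is also the denominator of both ratios, so that sites narrow in young QSCs have higher ratios in part by selection. In the lowest tercile of young QSC widths the median ratio was 1.11 for old over young QSCs and 1.05 for ASCs over young QSCs, and the old peak was wider than the ASC peak at 58.1% of sites. In the highest tercile the ratios were 1.02 and 1.10, and the old peak was wider than the ASC peak at 34.4% of sites. When sites were sorted by the geometric mean of the 3 widths, the ratio of old over young QSCs was 1.07, 1.05 and 1.04 from the lowest to the highest tercile, and that of ASCs over young QSCs was 0.956, 1.12 and 1.20. This mean includes the ASC width, so the order of the ASC ratios is in part set by selection too.

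**Figure D5:**
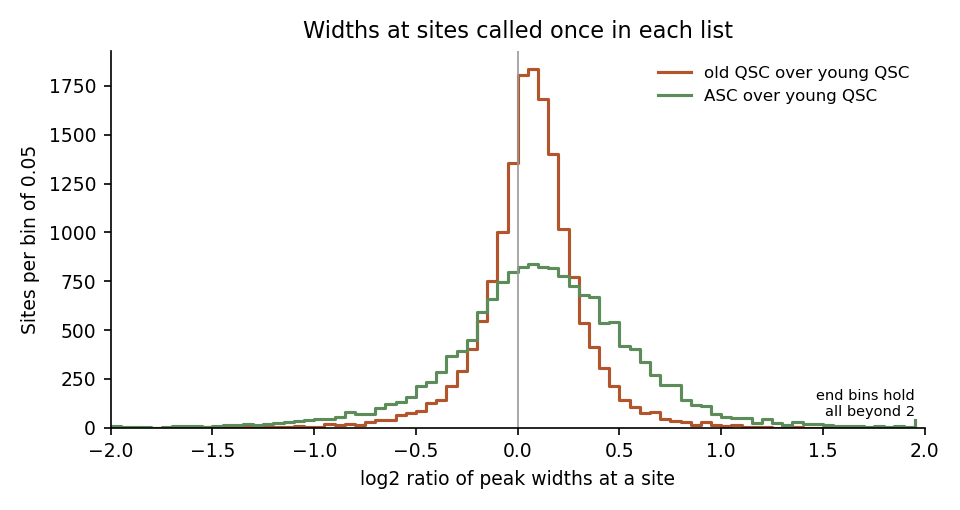
The curves give the number of sites per bin of 0.05 (y axis) by log2 ratio of peak widths (x axis) at the 15893 sites called once in each list, for old over young QSCs (orange) and ASCs over young QSCs (green). Both have their highest point to the right of 0, with median linear ratios of 1.05 and 1.09, and the green curve is the broader. The end bins hold all sites beyond a log2 ratio of 2.

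Broad H3K4me3 domains were more frequent in ASCs and slightly more frequent in old than in young QSCs. Among the 15893 sites, 2097 were wider than 3 kb in ASCs, 856 (5.39%) in old QSCs and 727 (4.57%) in young QSCs. Of the 1476 sites wider than 3 kb in ASCs and not in young QSCs, 147 were wider than 3 kb in old QSCs, a share of 9.96% (8.53% to 11.6%). Of the 1395 sites wider than 3 kb in ASCs and not in old QSCs, 66 were so in young QSCs, a share of 4.73% (3.74% to 5.97%). At a limit of 4 kb the shares were 9.36% and 4.18%. For broad domains at shared sites the old list thus had the higher share of the pair, whereas for the presence of a peak over all scores the young list had it. Old QSC peaks were also wider than young ones in general, at 66.6% of all sites and in the median of each tercile of either sorting. The shares of old and young peaks wider than 3 kb at sites not broad in ASCs were not compared. Whether the higher old share goes beyond this general difference in width was therefore not tested. With 1 library of each age, a difference in width cannot be told apart from one in library depth or quality.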

How the data were processed

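H3K4me3, H3K27me3 and H3K36me3 ChIP-seq lists of sorted mouse satellite cells were used, 8 ChIP libraries in all. The 3 input libraries were not analysed here. Per the submitters' processing notes reads were aligned with Bowtie to mm9, and the names of the deposited lists name MACS and an input control. Versions, read numbers, handling of duplicates and the input used for each list are not given in the sources used here. The authors deposited each peak with a position and a score, taken from its values to be the MACS score, a multiple of the negative log10 of p. It was used to rank and filter peaks within a list and, with the limit that depth is unknown, to compare lists at the same score. The same ranks in place of the same score were also used.

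Groups came from the sample labels. Peaks overlapped when they shared at least 1 bp. Overlaps, merged sites, widths and Wilson 95% intervals were computed with Python 3.11.15, numpy 2.4.6 and scipy 1.17.1, and figures with matplotlib 3.10.9. The overlap code was tested on simulated data, where all 600 planted overlaps of 1500 peaks were found, and gave the same counts as bedtools 2.31.1 for 2 pairs of lists. With 1 library for each cell state and mark, no test was made and depth is unknown, so intervals cover counting error only. Intervals of differences combine the Wilson limits of both shares, and that of the log2 ratio of sites treats both numbers as Poisson counts.

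Regions named in the text are from the 10 highest-scoring peaks of each of 3 classes: old QSC peaks without young QSC with ASC, the same without ASC, and ASC peaks without young QSC. Those described among the 10 were picked after their values were seen. The classes, the comparisons and this rule were chosen with earlier results of these data known. Other settings tried were a score of at least 100, the same number of top-scoring peaks (24453) in each H3K4me3 list, an overlap of 50% of the shorter peak, merging of peaks less than 1 kb apart, absence only with no peak within 1 kb, and autosomes only. A restriction to peaks without old QSC H3K27me3, one to scores of at least 200, one to the 15482 top-ranked peaks of each QSC list and a sorting of sites by mean width were added after seeing the data. Gene positions and sequences were not used, because the gene table at hand is of another build.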

Additional observations from a re-analysis of the deposited data

How the results depend on the processing

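The results were recomputed under 6 other settings and, for the shares of peaks, under 3 restrictions chosen after seeing the data. The difference between old QSC peaks without young QSC and their mirror image in the share found in ASCs stayed below 0 in 6 of 9 settings. It was 5.76 percentage points without peaks that overlap old QSC H3K27me3 26.4 for counted peaks with a score of at least 200 and 26.1 for the same top ranks of each QSC list. The difference for QSC peaks without ASC turned in 4 of 9 settings, to -1.80 with a score of at least 100, -16.0 without old QSC H3K27me3, -30.8 for counted peaks with a score of at least 200 and -31.1 for the same top ranks. The cause was not tested. The difference for ASC peaks stayed below 0 in 8 of 8 settings and the log2 ratio of sites in 6 of 6. Both rest largely on the same peaks and are not separate lines of evidence. With a score of at least 100 in each list, 89.5% of old QSC peaks overlapped ASCs, the shares of peaks of 1 age in ASCs were 34.8% (old) and 37.0% (young), a difference of -2.17, ASC peaks without young QSC were in old QSCs in 8.77%, a difference of -1.40 from the mirror image, young peaks without ASC were in old QSCs in 38.0%, the log2 ratio of sites was -0.25, the shared bases were 58.2%, the width ratio of ASCs over young QSCs was 1.11, and old QSC H3K27me3 lay at 24.7% of the old peaks of 1 age with ASC and 50.9% without. With the same number of peaks per list, 73.6% of old QSC peaks overlapped ASCs. The shares of peaks of 1 age in ASCs were 16.1% (old) and 22.1% (young), a difference of -6.00. ASC peaks without young QSC were in old QSCs in 10.7%, against 14.0% for the mirror image, a difference of -3.38. Young peaks without ASC were in old QSCs in 40.6%, the log2 ratio of sites was -0.43 and the shared bases were 55.2%. The width ratio of ASCs over young QSCs was 1.10. Old QSC H3K27me3 lay at 17.3% of the old peaks of 1 age with ASC and 60.9% without. An overlap of 50% of the shorter peak gave 28.0% of young peaks of 1 age in ASCs and 7.20% and 9.32% of ASC peaks in old and young QSCs. Merging of peaks less than 1 kb apart gave 19.8% and 27.2% of old and young peaks in ASCs, 8.53% and 11.1% of ASC peaks in old and young QSCs, 51.4% shared bases and a width ratio of 1.10 for ASCs. Absence defined by no peak within 1 kb gave 19.7%, 26.9%, 7.02% and 9.57% for the same 4 shares and 65.1% with old QSC H3K27me3 among old peaks without ASC. Autosomes alone gave 77.8% of old peaks in ASCs, 52.1% shared bases and 61.7% with old QSC H3K27me3. Without peaks that overlap old QSC H3K27me3, 85.9% of all old peaks were in ASCs, old and young peaks of 1 age gave 38.1% and 32.3%, ASC peaks without young QSC 6.18%, a difference of -3.47, young peaks without ASC 28.7%, and the log2 ratio of sites was -0.71. For scores of at least 200 the shares were 60%, 33.6%, 14.2%, 18.8% and 58.7%, and the difference for ASC peaks was -4.58. For the same top ranks the shares of QSC peaks were 60%, 33.9% and 58.4%. The overlap of 50% was not run for merged sites and covered bases, and the distance of 1 kb was not run for the share of all old peaks, covered bases and widths. The restriction on old QSC H3K27me3 was not run for covered bases, widths and the shares with H3K27me3, and those on score and rank were run only for the shares of peaks of 1 list absent from another, the rank only for QSC peaks. No paired analysis was possible because each group had 1 library and no result came from a test, and no library could be left out. The unknown depth limits each value.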
